A study of Mus musculus with 4 samples.

Results

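A set of 9 transcription factor genes was described in regulatory T cells (Tregs) taken from omental tumors and from the spleen. The genes were Gata1, Gata3, Rora, Tbx21, Maf, Irf4, Prdm1, Batf and Bcl6, and all but Gata1 mark helper or effector T cell states. They are 9 of 24421 genes in the deposited count tables. The set was chosen by symbol with the measured difference between the same tissues already known, so the levels below are a description and carry no test. All 9 passed the filter on low counts that 16322 genes passed. Tregs came from B6 Foxp3-DTR/GFP mice, which report Foxp3 with green fluorescent protein. These tumor-free, CD45.1-negative mice had been joined by parabiosis, a surgical union with a shared circulation, to CD45.1+ partners that had received 3000000 EG7.1.15 tumor cells into the peritoneal cavity. Partner-derived Tregs (live CD45.1-, CD45.2+, B220-, CD4+, CD25+ and Foxp3(GFP)+) were sorted at day 14 after tumor cell injection from the omental tumors and the spleen of the tumor-bearing parabiont. Each tissue gave 2 libraries, 1 of mouse 2 and 1 of mouse 3. All 4 libraries share the reporter strain, the parabiosis and the tumor-bearing host, and no Tregs of a tumor-free host or of the host's own origin were among the samples. Age was not among the labels.

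As background, GATA3, ROR proteins, T-bet (the product of Tbx21) and BCL6 are the master regulators of type 2, type 17, type 1 and follicular helper T cells, and Tregs can carry low amounts of the same factors when they adapt to a tissue. BATF and IRF4 bind DNA together at composite AP-1 and IRF sites and open the effector Treg programme, in which BLIMP-1 (the product of Prdm1) and c-MAF act further downstream and favour interleukin-10. GATA1 belongs to the same zinc finger family as GATA3, binds the same WGATAR letters and is best known as the master regulator of erythroid cells, megakaryocytes, mast cells and eosinophils.

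The 250 bases before the start sites of the 3 genes whose tissues did not overlap are printed 5′ to 3′ in the direction of transcription (RefSeq, build GRCm38.p6), because GATA1 and GATA3 recognise the same motif. RefSeq windows matched 8 of the 9 genes, and Maf had none. The windows of Gata1, Gata3 and Prdm1 lie inside the gene spans given below, so sequence before the outermost end of these spans was not searched. Capitals mark a GATA motif (AGATAA, with T allowed as the first letter and G as the last) or a CACCC box (CCACCC, the letters bound by Krüppel-like factors), each on either strand.
Gata1, chrX:7967911-7968160, minus strand: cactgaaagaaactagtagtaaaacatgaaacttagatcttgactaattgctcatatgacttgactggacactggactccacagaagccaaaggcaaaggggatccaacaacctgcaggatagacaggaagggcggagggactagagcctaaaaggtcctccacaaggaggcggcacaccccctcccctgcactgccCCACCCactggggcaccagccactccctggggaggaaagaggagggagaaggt
Gata3, chr2:9878601-9878850, minus strand: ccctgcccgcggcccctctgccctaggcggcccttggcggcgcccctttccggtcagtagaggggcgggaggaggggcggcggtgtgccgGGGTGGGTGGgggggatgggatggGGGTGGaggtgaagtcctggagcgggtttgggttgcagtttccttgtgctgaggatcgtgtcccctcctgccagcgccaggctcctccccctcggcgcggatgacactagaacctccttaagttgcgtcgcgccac
Rora, chr9:68653536-68653785, plus strand: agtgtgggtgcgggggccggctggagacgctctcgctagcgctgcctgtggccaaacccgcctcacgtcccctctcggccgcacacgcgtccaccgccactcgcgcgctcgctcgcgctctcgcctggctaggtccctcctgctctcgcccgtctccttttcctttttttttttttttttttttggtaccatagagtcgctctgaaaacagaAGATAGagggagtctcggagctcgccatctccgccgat
Gata1 held 1 CACCC box, 53 bases before the start site at its first base, and no GATA match. Gata3 held 3 CACCC boxes on the reverse strand (GGGTGG), the first and second sharing bases, and no GATA match. Rora held 1 GATA match, AGATAG, 38 bases before its start site. Of 32851 RefSeq windows of this length, 26.5% held a GATA motif and 28.1% a CACCC box, so these matches are common. Elsewhere in the set, Batf held a GATA match (TTATCT) and CTTTCAC, the reverse of GTGAAAG, which counted together with the interferon-stimulated response element occurs in 4.13% of windows. Prdm1 held an AP-1 motif, TGAATCA (with any central letter in 6.75% of windows), and 1 of the 2 Bcl6 windows held TTCCTGGAA, a BCL6 motif found in 1.74% of windows together with TTCCTAGAA or TTCTTAGAA or TTCTTGGAA. Irf4 and Tbx21 held none of the motifs searched, which also covered the MAF motif TGCTGAC, the ROR motif AAGGTCA (T allowed as the first letter) and the T-box motif GGTGTGA.

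The libraries differed in depth and in content. Counts in genes were 6660230 and 3764508 in omental tumor (mouse 2 and mouse 3) and 9989005 and 13598631 in spleen. Levels below are given as CPM, counts scaled to library size with TMM factors, always in the order of mouse 2 and mouse 3 within a tissue. In all 4 libraries Foxp3 was present at 81.4 and 84.3 CPM in omental tumor and 113 and 144 CPM in spleen. The 11 T cell markers in the files summed to 4119 and 4705 CPM in omental tumor and 6027 and 9730 CPM in spleen. Markers of other cells were also present. The summed level of 10 neutrophil markers in the files was 162 and 1470 CPM in omental tumor against 103 and 77.0 in spleen. That of 14 macrophage and monocyte markers was 489 and 798 against 242 and 470. Lyz2 (250 and 297 against 6.85 and 61.8) and Cd14 (23.8 and 273 against 2.64 and 4.85) carried the excess. Of the 13 tested macrophage and monocyte markers, 8 had negative log2 fold changes. Across all genes tested, the median absolute log2 difference between the mice was 1.01 in omental tumor and 0.74 in spleen. EdgeR's quasi-likelihood test with Benjamini-Hochberg adjustment called 215 of 16322 genes (1.32%), 178 higher (1.09%) and 37 lower (0.227%) in omental tumor, and 1470 had an unadjusted p under 0.05. That test is used below for genes outside the set. In sorted bulk samples, fewer cells carrying a transcript and less of it per cell cannot be told apart.

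Among the 9 genes the tissues did not overlap for 3, with both omental libraries above both spleen libraries for Gata3 and Rora and below them for Gata1. Of all genes tested, 41.8% did not overlap in one direction or the other, and since this contrast chose the set, nothing is read from the count. The 2 mice gave opposite directions for 4 of the 9, Tbx21, Maf, Irf4 and Prdm1, against 31.5% of all genes tested. With libraries scaled to their gene totals alone these were 3, without Maf. Batf and Bcl6 lay higher in omental tumor within each mouse, but their tissues overlapped across mice. In mouse 3 the log2 ratios of Maf (-0.14) and Bcl6 (0.02) were within counting error of 0.

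**Figure D1:**
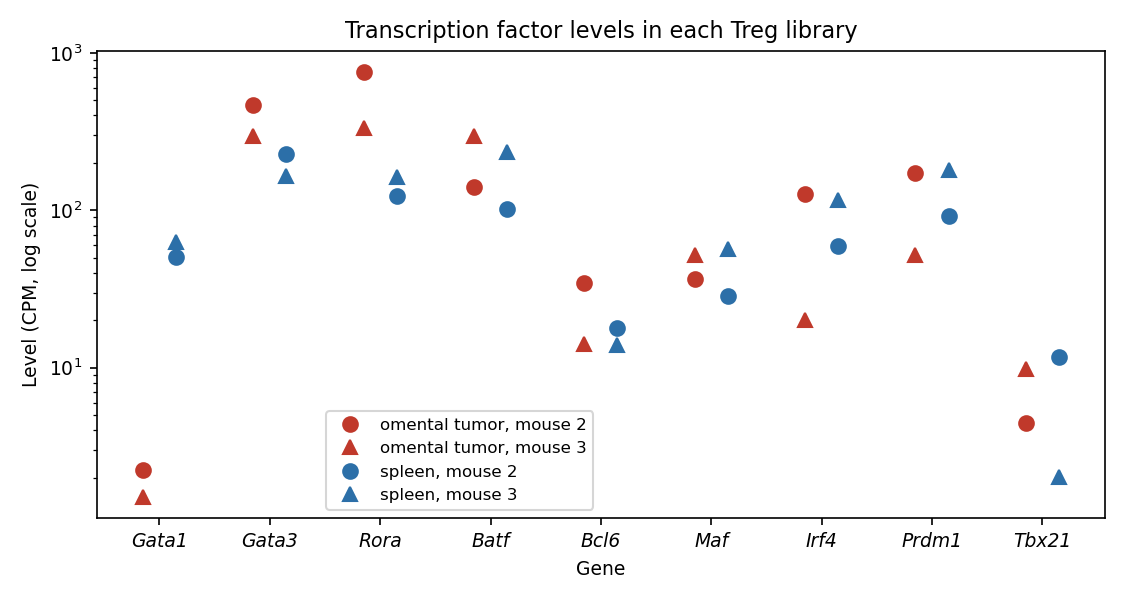
Level of each of the 9 genes in every library, as CPM on a logarithmic axis, with omental tumor and spleen side by side and the mouse given by the symbol. Gata1 lies near 2 CPM in both omental libraries and above 50 CPM in both spleen libraries, whereas the libraries of the tissues interleave for Tbx21, Maf, Irf4, Prdm1, Batf and Bcl6.

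Gata1 (chromosome X, 7959260 to 7978071, minus strand, GENCODE M21 on GRCm38) had 17 and 6 counts in omental tumor and 519 and 689 counts in spleen. These were 2.23 and 1.52 CPM against 50.8 and 63.0 CPM, or 1.88 ± 0.504 against 56.9 ± 8.67 CPM (SD, n = 2). The spleen libraries lay close to each other and far above both omental libraries, and the fitted log2 difference of omental tumor from spleen was -4.89. Within mouse 2 the omental level was 22.8-fold lower (95% interval 14.1 to 39.4), and within mouse 3 it was 41.5-fold lower (19.0 to 113). Such intervals, here and below, are exact and cover counting error only, not the spread between animals. The intervals of the mice overlapped, and 6 counts in the omental library of mouse 3 set the width of the second.

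A gap in the same direction was seen in ratios of raw counts within a library, which need no normalization. Foxp3 itself was lower in omental tumor, at 81.4 and 84.3 CPM against 113 and 144 in spleen. Ratios to it, here and below, therefore narrow a fall and widen a rise compared with CPM. Per Foxp3 count, Gata1 had 0.0274 (95% interval 0.0159 to 0.0443) and 0.0180 (0.00657 to 0.0396) counts in omental tumor, against 0.450 (0.405 to 0.499) and 0.436 (0.398 to 0.478) in spleen. The spleen libraries thus held nearly the same ratio, and so did the omental libraries within counting error. Per count of its relative Gata1, Gata3 had 209 and 195 counts in omental tumor against 4.47 and 2.60 in spleen. In the spleen, per kilobase of exon, the mean Gata1 level of 23.3 ± 3.56 CPM per kb stood next to that of Prdm1 (24.4 ± 11.4) and above that of Irf4 (17.9 ± 8.13), with differences inside their spread. In omental tumor Gata1, at 0.769 ± 0.207 CPM per kb, was the lowest of the 9.

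Several partners with which GATA1 acts in erythroid and megakaryocytic cells were nearly lacking in the spleen libraries where Gata1 was high. Zfpm1, which encodes the GATA cofactor FOG-1, had 3 and 4 counts there, Tal1 1 and 1, and Klf1, the erythroid Krüppel-like factor, 3 and 1. In omental tumor Zfpm1 had 1 and 28 counts, Tal1 0 and 2, and Klf1 2 and 1. Lmo2 had 9 counts and 1 count in spleen, whereas Ldb1 and Runx1, which T cells also express, had 236 and 305 and 662 and 175 counts. Of the 11 listed partners, 7 were tested. None was called by edgeR's quasi-likelihood test, DESeq2 or limma-voom, and 1 had an unadjusted p under 0.05 in the first. Of these, 4 values were positive and 3 negative on the log2 scale, their median being 0.51 against 0.11 over all genes tested, or 2.12 with spleen mouse 2 and 1.12 with omental mouse 2 left out. The ETS factor Fli1 was at 176 and 70.1 CPM in omental tumor and 212 and 404 CPM in spleen (log2 fold change -1.32, adjusted p = 0.674). Spi1, which encodes the myeloid factor PU.1, was at 6.17 and 9.62 against 2.74 and 0.0915 CPM (2.47, adjusted p = 0.5), and was called higher with the mouse as a replicate block (3.09, adjusted p = 0.0324). The corepressor gene Cbfa2t3 had a log2 fold change of 2.39 (adjusted p = 0.693).

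Many markers of the cells that depend on GATA1 were low, and those tested were mostly positive on the log2 scale. Positive values were found for 3 of 4 tested erythroid markers and 4 of 6 mast cell and basophil markers. The same held for 4 of 5 tested megakaryocyte and platelet markers and for all 3 tested eosinophil markers. The globin genes Hba-a1, Hba-a2, Hbb-bs and Hbb-bt, near-identical copies whose reads unique counting can lose, were listed at 0 in all 4 libraries. The summed erythroid markers, 11 of 13 of them in the files, reached 399 and 120 CPM in omental tumor and 112 and 141 in spleen, nearly all of it Tfrc, the transferrin receptor that dividing T cells also carry. Summed mast cell and basophil markers were at 69.6 and 389 CPM against 37.0 and 15.1, and Gata2, the GATA factor of those cells, at 4 and 2 against 6 counts and 1 count. Within that list Hdc, the histidine decarboxylase of mast cells, basophils and neutrophils, rose to 16.4 and 373 CPM from 1.76 and 0.549 (log2 fold change 7.38, SE 1.04, adjusted p = 3.48e-09, edgeR's quasi-likelihood test). In that test the call was lost with library gene totals (7.53, adjusted p = 0.0588) and with a minimum count of 50 (7.61, adjusted p = 0.108). With omental mouse 3 left out, the call was also lost and Hdc was at 3.73. It made up most of the list's sum in that library, and the median of the 6 tested genes was 0.16. The basophil marker Slc45a3, named after its values were seen, had the direction of Gata1 at a low level, with 3 counts and 1 count in omental tumor and 25 and 39 in spleen (log2 fold change -3.11, unadjusted p = 0.0489, adjusted p = 0.549). Megakaryocyte and platelet markers summed to 15.1 and 8.61 CPM against 9.39 and 5.03, and among them Clec1b was lower in omental tumor in both mice (12 and 2 counts against 22 and 26). Eosinophil markers summed to 129 and 90.9 against 43.3 and 57.9, carried by the chemokine receptor gene Ccr3, while the granule genes Prg2 and Epx had at most 5 counts in any library. The part of these cells in the level of Gata1 was not tested.

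**Figure D2:**
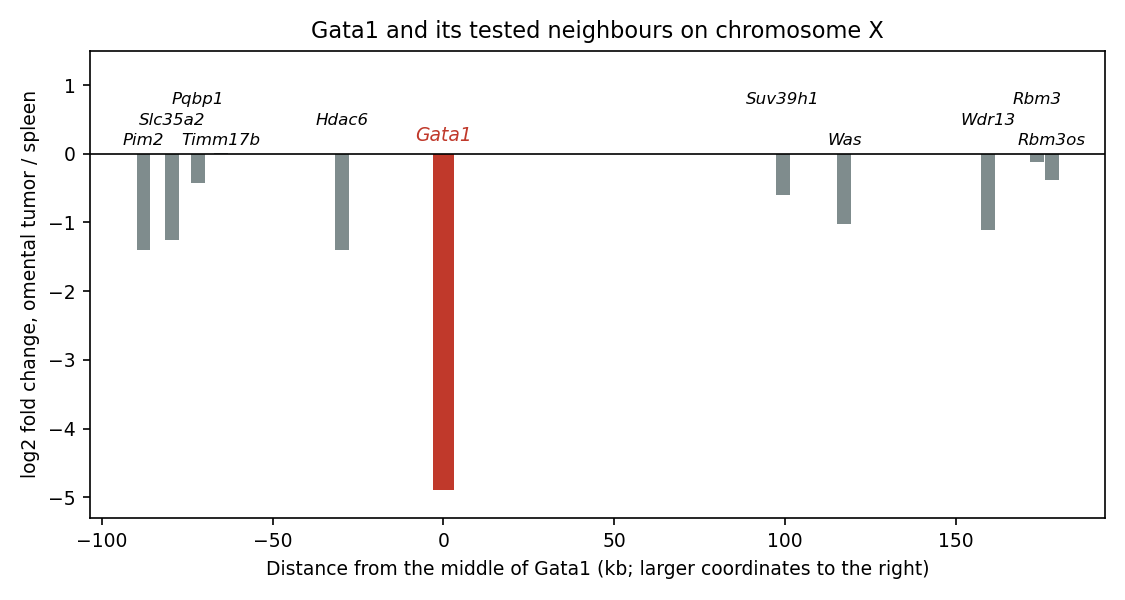
Log2 fold change of omental tumor over spleen (vertical axis) for Gata1 and the 5 tested genes on each side of it on chromosome X, by the distance in kb between the middles of the genes. Gata1 lies at -4.89, and its 10 neighbours lie between -1.41 and 0.01, where the bar of Timm17b is too short to see.

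The genes around Gata1 did not share its size of difference, as the plot of log2 fold change by distance shows. None of the 5 tested genes on either side was called by edgeR's quasi-likelihood test, DESeq2 or limma-voom, 0 had an unadjusted p under 0.05 in the first, 9 of 10 had negative values and their median was -0.81. The nearest, Hdac6, a cytoplasmic deacetylase gene 11.2 kb from the nearer end of Gata1, was at 39.6 and 4.30 CPM in omental tumor and 44.5 and 73.0 in spleen (log2 fold change -1.41, adjusted p = 0.599), and fell by 3.78 on the log2 scale once the omental library of mouse 2 was left out (adjusted p = 0.0173). Pim2, a survival kinase gene, was at -1.40 (adjusted p = 0.605), Slc35a2 at -1.26 (0.675), Wdr13 at -1.12 (0.72) and Was, the Wiskott-Aldrich gene, at -1.02 (0.746). Suv39h1, a histone methyltransferase gene, was at -0.59 (0.847) and Pqbp1 at -0.42 (0.893). Timm17b, Rbm3 and its antisense partner Rbm3os were at 0.01 (0.997), -0.12 (0.972) and -0.37 (0.944). Within mouse 2 the median neighbour was at -0.17 and within mouse 3 at -1.56, so the neighbours lay lower in omental tumor mainly in mouse 3. With the spleen library of mouse 3 left out, their median over both mice was -0.28.

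Among 8614 other genes with a mean of at least 10 CPM, the profile over the 4 libraries nearest to that of Gata1 belonged to Dtx1, a Notch pathway ubiquitin ligase gene, at a Euclidean distance of 0.348 in log2 CPM. It was at 1.18 and 0.506 CPM in omental tumor and 27.4 and 35.4 CPM in spleen. Next came Id3, an inhibitor of E proteins in lymphocytes (distance 0.515), at 3.94 and 3.04 against 134 and 150 CPM. The G protein-coupled receptor gene Gpr34 followed (distance 0.547), at 3.94 and 2.03 against 52.4 and 69.7 CPM. They were selected for their likeness over 4 libraries, so no test is given.

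Gata3 (chromosome 2, 9857078 to 9890034, minus strand) was higher in both omental libraries than in either spleen library. It had 3550 and 1168 counts in omental tumor and 2320 and 1792 in spleen, that is 466 and 296 CPM against 227 and 164 CPM. The means were 381 ± 120 and 195.5 ± 44.6 CPM, a log2 difference of 0.96. The log2 ratio was 1.04 (95% interval 0.96 to 1.11) in mouse 2 and 0.85 (0.74 to 0.96) in mouse 3, with intervals that did not quite overlap before rounding. Leaving out the omental library of mouse 2 lowered the difference to 0.59. Per Foxp3 count, Gata3 had 5.73 and 3.51 counts in omental tumor against 2.01 and 1.13 in spleen. Its locus overlaps 4930412O13Rik on the opposite strand, which had at most 28 counts in a library. Antisense genes also overlap Gata3, Rora, Maf and Bcl6, and because the kit does not mark strand, reads from them cannot be told apart.

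Rora (chromosome 9, 68653786 to 69388246, plus strand), which encodes the nuclear receptor RORα of type 17 cells, group 2 innate lymphoid cells and skin Tregs, had the largest positive difference of the 9. It had 5756 and 1309 counts in omental tumor and 1257 and 1771 in spleen, or 756 and 331 against 123 and 162 CPM. The means of 543 ± 300 and 143 ± 27.6 CPM gave a log2 difference of 1.93. Both omental libraries exceeded both spleen libraries, but by unequal amounts, 2.62 (95% interval 2.53 to 2.71) in mouse 2 and 1.03 (0.93 to 1.14) in mouse 3, whose intervals did not overlap. Leaving out the omental library of mouse 2 gave 1.20, and leaving out that of mouse 3 gave 2.32. Per Foxp3 count, Rora had 9.28 and 3.93 counts in omental tumor and 1.09 and 1.12 in spleen. Rora counts exceeded Gata3 counts in the omental libraries (1.62 and 1.12 per Gata3 count) and fell short of them in spleen mouse 2 (0.542). In spleen mouse 3 the ratio was 0.988, with a 95% interval (0.925 to 1.06) that included equal counts. The longer exons of Rora, 13071 bases against 3978, set the order the other way per kilobase, where Gata3 stood at 95.7 ± 30.3 and Rora at 41.6 ± 22.9 CPM per kb in omental tumor.

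**Figure D3:**
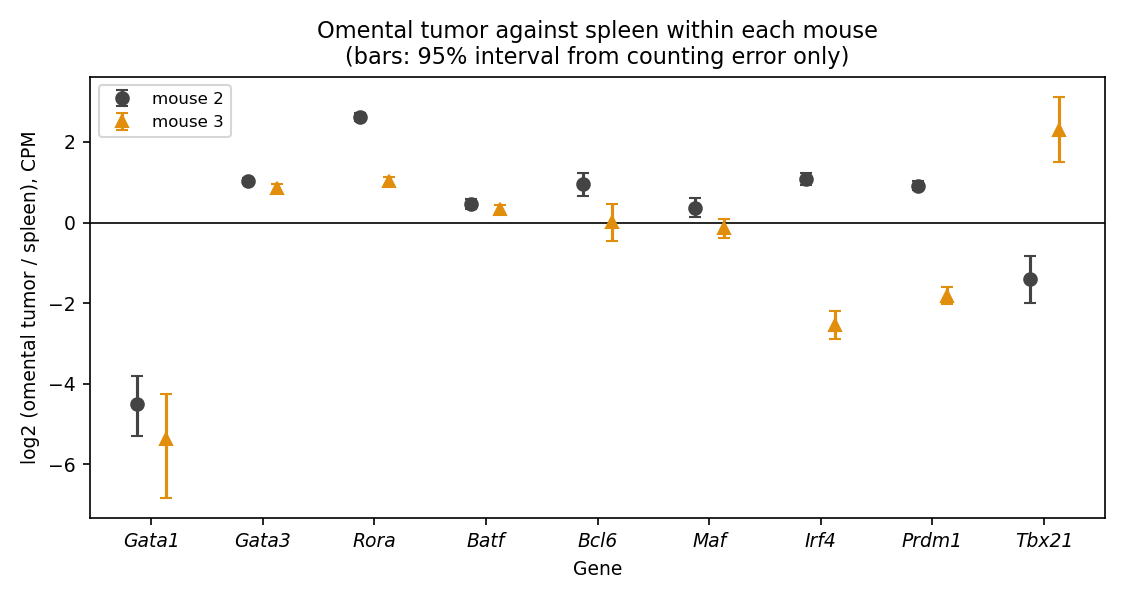
Log2 ratio of omental tumor to spleen within mouse 2 and within mouse 3 for each of the 9 genes, with bars for the 95% counting interval. Gata1 is below 0 and Gata3, Rora and Batf are above 0 in both mice, and Irf4, Prdm1 and Tbx21 lie on opposite sides of 0 with intervals far apart.

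Of the type 2 programme that GATA3 drives, the genes for amphiregulin and interleukin-5 were called higher in omental tumor, neither of them in every setting. Of 12 listed genes 10 were tested, 9 were positive on the log2 scale, their median being 1.81 against 0.11 over all genes tested, and 2 rose. Within the mice the medians were 2.07 and 1.39, and the median was 0.73 with omental mouse 2 and 1.13 with omental mouse 3 left out. Areg, which encodes the tissue repair factor amphiregulin, was at 76.4 and 616 CPM in omental tumor and 2.45 and 1.28 in spleen, and rose by 7.53 on the log2 scale (SE 1.08, adjusted p = 5.37e-09, edgeR's quasi-likelihood test). With omental mouse 3 left out the rise was 5.27, and with a minimum count of 50 its adjusted p was 0.0613. Il5, the eosinophil growth factor, had 29 and 35 counts in omental tumor and 3 and 0 in spleen (log2 fold change 5.31, adjusted p = 0.0403). In edgeR's test that call on few counts was kept with RLE factors and the replicate block, and DESeq2 also made it. It was lost with upper-quartile factors (5.82, adjusted p = 0.0532), without a filter (5.18, 0.058) and with library gene totals (5.47, 0.383). Limma-voom did not make it either (5.46, adjusted p = 0.204). It was also lost on leaving out omental mouse 3 (4.52), spleen mouse 2 (8.54) or spleen mouse 3 (4.69). A fitted fold change against a library at 0 depends on the prior count. Il10 was at 25.5 and 85.1 against 7.14 and 20.9 CPM (1.98, adjusted p = 0.327), and was called higher with omental mouse 2 left out (2.58, adjusted p = 0.0395). Il4 had 19 and 7 counts against 3 and 0, and Il13 no more than 2 counts in any library. Il1rl1, which encodes the interleukin-33 receptor ST2 of tissue Tregs and of group 2 innate lymphoid cells, was at 1104 and 205 CPM against 170 and 248 (1.65, adjusted p = 0.577). It made up most of the summed level of 10 innate lymphoid and NK cell markers, 1171 and 383 CPM against 208 and 274, whereas the NK receptor gene Ncr1 was at 4.20 and 1.27 against 2.35 and 0.0915 CPM. The part of such cells in the Gata3 and Rora levels was not tested.

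The type 17 and clock genes tied to ROR proteins were mixed in direction. Of 13 listed genes 11 were tested, none was called by edgeR's quasi-likelihood test or limma-voom, and 1 (Il6ra) had an unadjusted p under 0.05 and was called lower by DESeq2. Of these, 4 had positive and 7 negative log2 fold changes, and the median was -0.20. Its sign was not stable, at 0.73 with spleen mouse 2 left out, 0.56 with spleen mouse 3 left out and -0.89 with omental mouse 2 left out, and 0.22 with upper-quartile factors. Il6ra, the interleukin-6 receptor, was at 3.15 and 4.56 CPM in omental tumor and 44.6 and 17 CPM in spleen (log2 fold change -3.01, adjusted p = 0.0547), and with the mouse as a replicate block it fell by 2.87 on the log2 scale (adjusted p = 0.0456). Of the clock genes, Nr1d1 was at -1.79 (adjusted p = 0.586) and Npas2 at 2.06 (0.692). The nearest profiles to Rora were those of the phosphatase gene Dusp10 (distance 0.243; 353 and 122 CPM in omental tumor, 51.9 and 67.3 in spleen), the heat shock gene Hspa2 (0.343) and the lactate transporter gene Slc16a3 (0.367). Nearest to Gata3 were Bmpr2 (0.0878), Tex9 (0.113) and Tnip3 (0.132).

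Batf (chromosome 12, 85686669 to 85709087, plus strand), the AP-1 factor that pairs with IRF4, had the highest mean of the 9 per kilobase in both tissues, at 155 ± 77.5 CPM per kb in omental tumor and 119.5 ± 67.1 in spleen. In the omental library of mouse 2, Gata3 stood above it, at 117 CPM per kb. It had 1071 and 1164 counts in omental tumor and 1036 and 2566 in spleen, which gave 141 and 295 against 101 and 235 CPM. In both tissues mouse 3 was the higher, and omental tumor exceeded spleen by 0.47 (95% interval 0.35 to 0.60) in mouse 2 and 0.33 (0.23 to 0.43) in mouse 3. The overall difference of 0.37 on the log2 scale was smaller than the gap between the mice, and it was -0.35 with omental mouse 3 left out and -0.17 with spleen mouse 2 left out. Maf (chromosome 8, 115682942 to 115707794, minus strand), which encodes the interleukin-10 activator c-MAF, had the profile closest to that of Batf within the set (distance 0.520). It was at 36.8 and 51.6 CPM in omental tumor and 28.4 and 56.8 in spleen, a log2 difference of 0.05, with 0.37 (0.13 to 0.61) in mouse 2 and -0.14 (-0.37 to 0.09) in mouse 3. The mouse 3 value became positive when libraries were scaled to their gene totals alone.

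Irf4 (chromosome 13, 30749226 to 30766976, plus strand), which encodes the factor that sets effector differentiation after antigen receptor signals, differed more between the omental mice than between tissues. It had 962 and 79 counts in omental tumor and 607 and 1265 in spleen, or 126 and 20.0 against 59.4 and 116 CPM. The omental libraries stood 6.31-fold apart, the one of the 9 genes past 4-fold in that tissue, where 13.5% of all genes tested were at least 4-fold apart. Omental tumor was above spleen by 1.09 (95% interval 0.94 to 1.24) in mouse 2 and below it in mouse 3, at -2.53 (-2.88 to -2.20). The pooled difference of -0.26 therefore describes neither mouse. It was -2.14 with omental mouse 2 left out, 0.44 with omental mouse 3 left out and 0.11 with library gene totals alone.

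Prdm1 (chromosome 10, 44437177 to 44528501, minus strand) followed Irf4 (distance 0.698). It was at 173 and 51.6 CPM in omental tumor and 91.3 and 181 CPM in spleen, from 1315, 204, 933 and 1979 counts. Again omental tumor was higher in mouse 2, by 0.92 (95% interval 0.80 to 1.04), and lower in mouse 3, at -1.81 (-2.02 to -1.60). The pooled difference was -0.28, or 0.08 with library gene totals alone. Prdm1 counts per Irf4 count were 1.37 in the omental library of mouse 2 and 1.54 and 1.56 in spleen, against 2.58 in the omental library of mouse 3. Irf4 counts per Batf count were 0.898, 0.586 and 0.493 in the first 3 of these and 0.0679 in the last. The omental library of mouse 3 thus stood apart from the other 3 in the balance of these factors, with Batf at its highest level and Irf4 at its lowest. The profile of Tnfrsf1b, which encodes TNF receptor 2, was the nearest to Prdm1 (distance 0.0784), at 1339 and 388 CPM in omental tumor and 660 and 1388 in spleen.

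**Figure D4:**
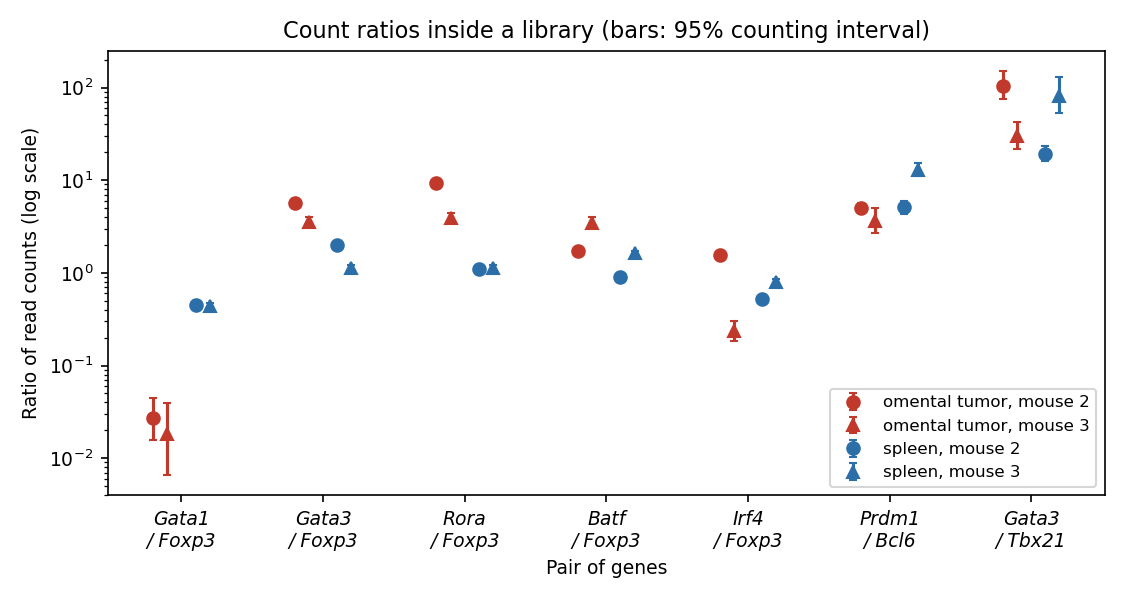
Ratios of raw counts between pairs of genes in each of the 4 libraries on a logarithmic axis, with 95% counting intervals. Gata1 per Foxp3 count lies below 0.03 in both omental libraries and above 0.4 in both spleen libraries, and Irf4 per Foxp3 count is lowest, at 0.237, in the omental library of mouse 3.

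Plasma cells also express Irf4 and Prdm1 strongly, and the sort excluded B220-positive cells, a marker that plasma cells can lack. The immunoglobulin J chain gene Jchain was at 465 and 5.32 CPM in omental tumor and 150 and 187 in spleen, with the same ranking of the omental mice as Irf4 and Prdm1, and Sdc1, which encodes the plasma cell antigen CD138, was at 8.27 and 1.01 against 1.17 and 0.641 CPM. All 10 listed B and plasma cell genes in the files summed to 607 and 134 CPM in omental tumor and 295 and 249 in spleen, but Xbp1, also of plasma cells, was at 42.3 and 98.0 against 90.5 and 10.3 CPM. With omental mouse 2 left out, the log2 fold change of Jchain was -4.99 (adjusted p = 0.00144, edgeR's quasi-likelihood test), against 0.49 with it. The part of these cells in the Irf4 and Prdm1 levels was not tested.

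Among partners of BATF and IRF factors, Fosl2 rose in omental tumor. Of 10 listed AP-1 and IRF partners 8 were tested, 6 had positive values, the median was 2.47 and 1 rose. Within the mice the medians were 1.0 and 2.93, and the median was 1.45 with omental mouse 3 left out. Fosl2, which encodes the AP-1 protein FRA2, was at 124 and 80.8 CPM in omental tumor and 1.47 and 2.65 in spleen, and rose by 5.62 on the log2 scale (SE 0.929, adjusted p = 1e-06, edgeR's quasi-likelihood test). Without the spleen library of mouse 2 that was 5.20 (adjusted p = 0.164). Fosb was at 20.9 and 10.4 against 2.25 and 1.65 CPM (3.00, adjusted p = 0.147). It was called higher by DESeq2 (adjusted p = 0.00933), which called 3 of the 8 (Fos, Fosb and Fosl2), and with the replicate block (2.93, adjusted p = 0.0165). Jund was at 4.07 and 62.8 against 5.58 and 4.94 CPM (2.66, adjusted p = 0.104), and was called higher with omental mouse 2 left out (3.56, adjusted p = 0.00163), whereas it was at -0.46 with omental mouse 3 left out.

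Of 21 effector Treg genes tied to BLIMP-1, IRF4 and BATF, all were tested, 18 had positive values, the median was 1.05 and 1 rose. Within the mice the medians were 1.36 and 1.04. The median was 0.52 with omental mouse 3, 0.65 with spleen mouse 2 and 1.96 with spleen mouse 3 left out. Nfil3, a basic leucine zipper repressor gene, was at 14.8 and 110 CPM in omental tumor and 0.881 and 3.48 in spleen (log2 fold change 4.82, SE 0.905, adjusted p = 3.42e-05, edgeR's quasi-likelihood test). In that test it missed the threshold with library gene totals (5.14, adjusted p = 0.0877) and with a minimum count of 50 (5.18, adjusted p = 0.114). It also missed it on leaving out omental mouse 3 (2.66) or spleen mouse 2 (4.10). Bhlhe40, a stress and circadian repressor gene, was at 1013 and 577 CPM against 50.0 and 141 (3.06, adjusted p = 0.0612), and Id2, an inhibitor of E proteins, at 607 and 1868 against 106 and 267 (2.73, adjusted p = 0.154). DESeq2 and limma-voom each called 3 of the 21 higher, Nfil3, Bhlhe40 (adjusted p = 0.0034 and 0.00431) and Id2 (adjusted p = 0.023 and 0.0412). Of 9 listed c-MAF targets 8 were tested and none was called by edgeR's quasi-likelihood test, DESeq2 or limma-voom. Of these, 2 had an unadjusted p under 0.05, 5 had positive values and the median was 0.88, or 0.27 with omental mouse 3 and 0.47 with spleen mouse 2 left out. The 3 with the smallest p were Il10, Il4 (3.76, adjusted p = 0.479) and the costimulator gene Icos, at 976 and 1231 against 250 and 540 CPM (1.48, adjusted p = 0.652). Macrophages also express Maf. Of 13 tested macrophage and monocyte markers 8 were negative, among them Csf1r at -1.75 (adjusted p = 0.437) and Mrc1 at -1.40 (adjusted p = 0.628), and the median was -0.52, or 0.38 with spleen mouse 3 left out. The markers Cd14 and Lyz2 rose, by 5.30 (adjusted p = 5.6e-06) and 2.99 (adjusted p = 0.0403) in the same test. Neither was called in that test with library gene totals (adjusted p = 0.0720 and 0.22) or a minimum count of 50 (0.114 and 0.259). Lyz2 was also not called with RLE factors (adjusted p = 0.0867) or without a filter (0.109). With omental mouse 3 left out, the values of Cd14 and Lyz2 were 2.57 and 2.77, and neither was called. Their part in the Maf level was not tested.

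Tbx21 (chromosome 11, 97098071 to 97115331, minus strand), which encodes T-bet, the factor of type 1 responses, was low and without a shared direction. It had 34 and 39 counts in omental tumor and 120 and 22 in spleen, or 4.46 and 9.87 against 11.7 and 2.01 CPM. Omental tumor was below spleen in mouse 2, at -1.40 (95% interval -1.99 to -0.84), and above it in mouse 3, at 2.29 (1.5 to 3.12). The spleen libraries were 5.83-fold apart, the one of the 9 genes past 4-fold there, where 14.2% of all genes tested were at least 4-fold apart. The pooled log2 difference was 0.05. Of 14 type 1 genes 13 were tested and none was called by edgeR's quasi-likelihood test, DESeq2 or limma-voom. Of these, 2 had an unadjusted p under 0.05, 8 had positive values and the median was 0.53, or -0.11 with omental mouse 2, 0.10 with spleen mouse 2 and 1.41 with spleen mouse 3 left out. The cytotoxic gene Gzma was called higher with the replicate block, and one of its spleen libraries had 0 counts. Cxcr3, the chemokine receptor gene that T-bet switches on, was at 50.5 and 62.0 against 88.4 and 228 CPM (-1.49, adjusted p = 0.586), while Cxcr6 was at 131 and 158 against 14.7 and 81.7 (1.59, adjusted p = 0.545).

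Bcl6 (chromosome 16, 23965052 to 23988852, minus strand), the follicular repressor that opposes BLIMP-1, was at 34.5 and 14.2 CPM in omental tumor and 17.9 and 14.0 in spleen, from 263, 56, 183 and 153 counts. One library, omental tumor of mouse 2, stood above the other 3, which lay between 14.0 and 17.9 CPM. The log2 ratio of omental tumor to spleen within mouse 2 was 0.95 (95% interval 0.67 to 1.23) and within mouse 3 it was 0.02 (-0.45 to 0.47). The pooled difference of 0.61 became -0.18 without the omental library of mouse 2. Prdm1 counts per Bcl6 count were 5.0 and 3.64 in omental tumor, against 5.10 and 12.9 in spleen. Of 14 follicular genes 13 were tested and none was called by edgeR's quasi-likelihood test or limma-voom, whereas DESeq2 called 2, Cxcr5 and Lef1, lower. An unadjusted p under 0.05 was found for 4, 9 had negative values and the median was -1.13, or -0.33 with spleen mouse 3 left out. Cxcr5, the receptor that guides cells into follicles, was at 16.7 and 3.80 CPM in omental tumor and 51.4 and 81.6 in spleen (log2 fold change -2.68, adjusted p = 0.0632), and fell by 4.14 on the log2 scale with omental mouse 2 left out (adjusted p = 0.00831). Lef1, a factor of naive and central cells, was at 71.3 and 45.8 against 306 and 363 CPM (-2.51, adjusted p = 0.153), and the inhibitory receptor gene Btla at 84.8 and 29.4 against 194 and 236 CPM (-1.91, adjusted p = 0.389).

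**Figure D5:**
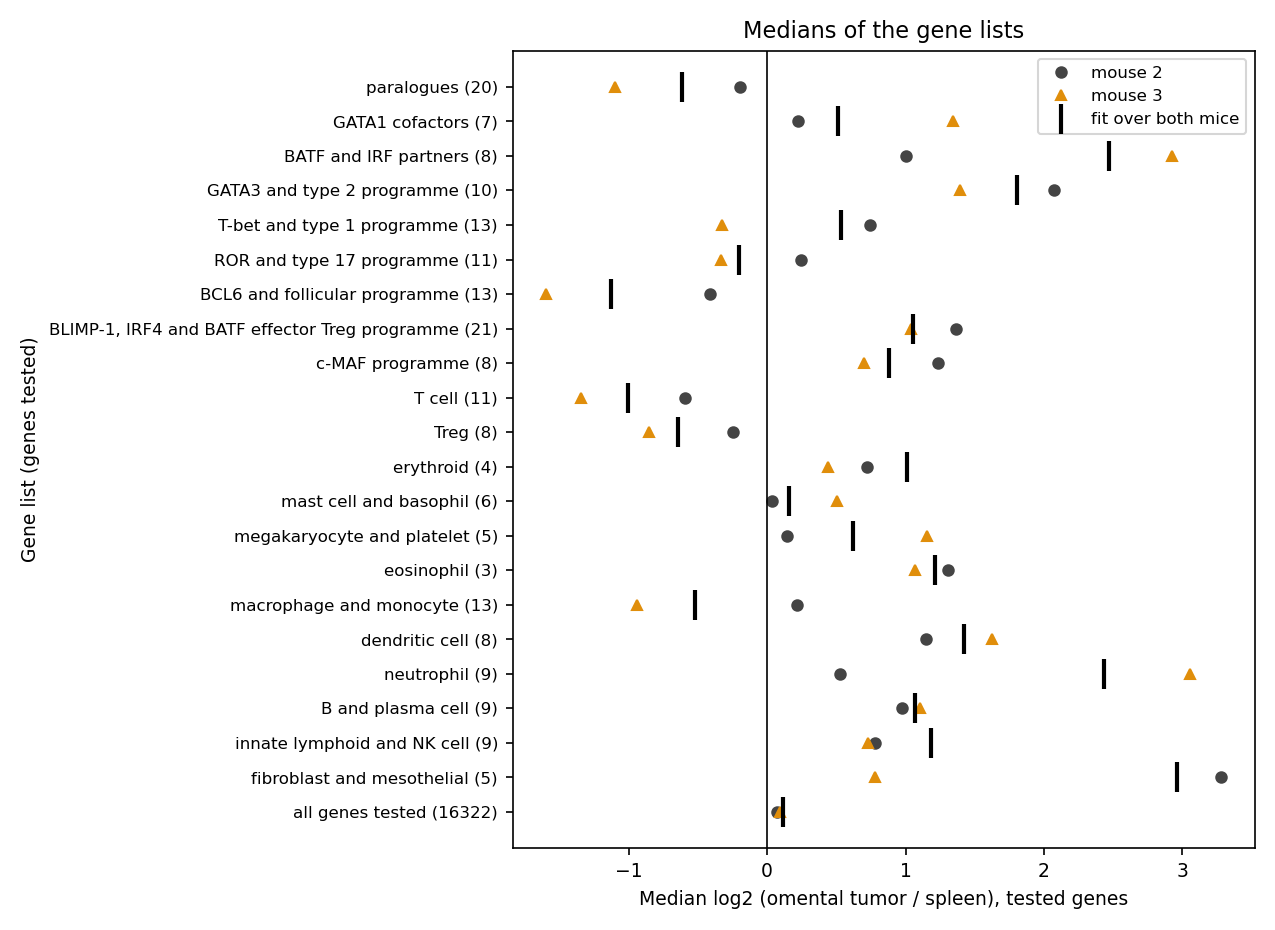
Median log2 fold change of omental tumor over spleen for the gene lists of each factor's partners and programme, for paralogues and for cell type markers, as vertical strokes, with the median within each mouse as points and all genes tested (0.11) in the bottom line. BATF and IRF partners (2.47) and type 2 genes (1.81) lie above it and follicular genes (-1.13) and paralogues (-0.62) below it. Markers of fibroblasts and mesothelium (2.96), neutrophils (2.44) and dendritic cells (1.42) also lie above it. The first lies further above it than BATF and IRF partners, and the last less far than type 2 genes.

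All 5 tested fibroblast and mesothelial markers and all 8 dendritic cell markers had positive values, with Col3a1 called by edgeR's quasi-likelihood test in the former and 0 called in the latter, where 2 had an unadjusted p under 0.05 and DESeq2 and limma-voom each called 1, H2-Ab1. Col3a1 was not called in edgeR's test with library gene totals (4.68, adjusted p = 0.281) or the replicate block (2.83, 0.167). Limma-voom did not call it either (3.03, adjusted p = 0.142). Without omental mouse 2, Col3a1 was at -0.15. Their part in the programme lists was not tested.

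Paralogues of the 9 factors were mostly lower in omental tumor, and none of the 20 tested of 31 was called by edgeR's quasi-likelihood test, DESeq2 or limma-voom. Of these, 1 had an unadjusted p under 0.05, 14 had negative values and the median was -0.62 against 0.11 over all genes tested, or -0.10 with spleen mouse 3 left out. Irf9, which carries interferon signals, was at 118 and 108 CPM in omental tumor and 313 and 446 in spleen (-1.75, adjusted p = 0.513). Irf1 was at 407 and 351 against 472 and 802, Irf2 at 66.0 and 90.4 against 120 and 197, and Irf3 at 57.1 and 58.7 against 103 and 167 CPM. Irf7, an interferon-induced family member, split the omental mice at 60.6 and 497 CPM, against 153 and 214 in spleen, and Prdm2 was at 87.9 and 31.1 against 123 and 104 CPM. Gata2, Gata4, Gata5 and Gata6 had at most 9 counts in any library.

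Per kilobase of exon the order of the means in spleen was Batf, Gata3 (49.1 ± 11.2 CPM per kb), Prdm1, Gata1, Irf4, Rora (10.9 ± 2.11), Maf (5.17 ± 2.44), Tbx21 (2.76 ± 2.77) and Bcl6 (2.38 ± 0.413). In omental tumor it was Batf, Gata3, Rora, Prdm1 (20.1 ± 15.3), Irf4 (14.9 ± 15.3), Maf (5.36 ± 1.28), Bcl6 (3.63 ± 2.15), Tbx21 (2.88 ± 1.54) and Gata1. In spleen each pair of neighbours from Prdm1 down to Rora and from Maf down to Bcl6 differed by less than the larger SD of the pair. In omental tumor each pair did so except Gata3 over Rora and Tbx21 over Gata1. Between the tissues Gata1 moved to the end of the order, Rora moved up behind Gata3, and Tbx21 and Bcl6 exchanged places.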

How the data were processed

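The deposited values are raw read counts per gene symbol, 1 table per library. Per the submitters' processing notes the authors used Trim Galore, TopHat2, SAMtools and HTSeq on mm10; no source used here gives versions, annotation or strand setting. Per the labels' protocols, libraries were made with SMART-seq v4 and Nextera XT, which do not mark strand. The 5 HTSeq summary entries that name no gene were left out: reads outside genes (24.8% to 48.9% of entries), not unique (28.0% to 49.9%) and ambiguous (0.442% to 1.22%) left 17.1% to 46.0% in genes. Low depth in the omental libraries widens the counting error of low genes.

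The analysis used edgeR 4.0.16 in R 4.3.3: filterByExpr at a minimum count of 10, TMM factors (1.15, 1.05, 1.03 and 0.804) and the quasi-likelihood test of tissue over 16322 genes, adjusted by Benjamini-Hochberg at 0.05, with 2 residual degrees of freedom. The prior degrees of freedom were infinite, so p-values do not measure a gene's own spread. SE is the absolute log2 fold change over the square root of F. CPM use effective library sizes, and log2 CPM a prior count of 2. Intervals for count ratios are exact conditional (Clopper-Pearson) 95% intervals (scipy 1.17.1). Exon lengths and coordinates are from GENCODE M21, neighbours and promoters from RefSeq. The fit was tested on simulated data.

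The labels number the mice, and the same number marks the same animal in both tissues, so numbers pair the samples; deviations from tissue means correlated at 0.234 within mice, and crossed numbers must give the mirror value. Alternatives were RLE and upper-quartile factors, library gene totals, no filter, the replicate block, limma-voom (limma 3.58.1), DESeq2 1.42.0, a minimum count of 50 and leaving out each library, which assumes that the tissue left with 1 library has the spread of the other.

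The 9 genes and all lists were chosen with earlier results of these data known. Named besides them were, per gene list, the 3 partners or programme genes with the smallest p, the 6 most abundant paralogues, the 2 most abundant markers of another cell type, the 5 tested neighbours on each side of Gata1 and the 3 genes of nearest profile per factor. Genes named beyond this rule, such as Il1rl1 beside Gata3, Il4, Il13, Foxp3, Sdc1, Slc45a3, Clec1b, Csf1r, Mrc1, Gzma, Fos, Ncr1 and the untested partners of GATA1, were picked after their values were seen. A gene within the rule is not reported here.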

Additional observations from a re-analysis of the deposited data

How the results depend on the processing

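Genes called numbered 215 (178 higher, 37 lower) and were 26 (24 and 2) with library gene totals, 3 with a minimum count of 50, 370 (246 and 124) with DESeq2, 201 (188 and 13) with upper-quartile factors, 249 (221 and 28) with RLE, 163 (107 and 56) with limma-voom, 197 (164 and 33) without a filter and 308 (241 and 67) with the replicate block. DESeq2 gave no adjusted p for 3481 genes. Leaving out 1 library gave 44 (spleen mouse 2), 74 (spleen mouse 3), 79 (omental mouse 3) or 606 (omental mouse 2). Of 185 tested genes on the lists, 12 (6.49%) were called, against 2, 1 and 19 with gene totals, a minimum count of 50 and DESeq2, and 2 to 22 when a library was left out. Neighbours of Gata1 had 0 calls, or 1, Hdac6, without the omental library of mouse 2 (0 to 1 over the libraries left out). The log2 difference of Gata1 ran from -5.04 to -4.40 over the other 8 alternatives and from -5.23 to -4.55 when a library was left out, that of Gata3 from 0.82 to 1.43 and from 0.59 to 1.17, and that of Rora from 1.78 to 2.40 and from 1.20 to 2.32. Gata1, Gata3 and Rora kept their direction in all 12, Batf and Bcl6 in the 8 but not in each that leaves out a library, and Tbx21, Maf, Irf4 and Prdm1 changed it in at least 1 of the 8. The median of all genes, 0.11, became 0.37 with gene totals, 0.24 with RLE and 0.60 with upper-quartile factors. S100a8, a neutrophil gene at 4.70, turned to -0.67 with limma-voom. Over the libraries left out S100a8 ran from -5.86 to 5.69 and S100a9 from -2.47 to 5.83, lowest without omental mouse 3. Jchain ran from -4.99 to 1.38 and Col3a1 from -0.15 to 5.26, lowest without omental mouse 2. The cause was not tested. With 6 to 39 counts, Gata1 and Tbx21 in omental tumor are limited by depth.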
